A study of Homo sapiens with 6 samples.

Results

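NRF2, its inhibitor KEAP1 and 8 genes of the antioxidant response were followed in MDA-MB-231 cells, a human TNBC (triple-negative breast cancer) line, after treatment with SCH, an extract of Salvia chinensis Benth. The 10 genes were taken by name from the deposited tables, as a set chosen with earlier results of these data known: NFE2L2 (the gene of NRF2), KEAP1, NQO1, HMOX1, GCLM, GCLC, TXNRD1, SRXN1, OSGIN1 and EPHX1. All 10 were found among 58735 annotated genes, and all 10 passed the filter on low counts that kept 14736 genes for testing. RNA sequencing covered 6 samples of wild type cells, 3 kept for 24 h in vehicle and 3 in 100 mg/l of SCH. The extract is a mixture boiled in water and freeze-dried, and the labels give RPMI-1640 as the medium where the study's methods give DMEM. Total counts on genes were 20291379, 18714240 and 18334857 with vehicle and 16836369, 17979434 and 18414924 with SCH. The labels do not say whether the samples came from separate cultures, so the p-values measure the spread between these samples, which may be technical.

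NRF2 is a transcription factor that is made continuously and, in unstressed cells, is bound by KEAP1, an adaptor that hands it to a CUL3 ubiquitin ligase for destruction. Electrophiles and oxidants modify cysteines of KEAP1, NRF2 then escapes, pairs with a small MAF protein and binds antioxidant response elements near its target genes. These targets supply glutathione, keep thioredoxin and peroxiredoxins reduced, break down heme and detoxify quinones and epoxides. Much of this control acts on the protein, which the files do not measure.

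The antioxidant response element is a short DNA stretch, and its core was searched as TGACNNNGC on both strands of RefSeq promoters (GRCh38.p14, 250 bases before to 50 after a gene start). These promoters comprised 14 entries for 9 of the 10 genes. The core was in 5 of the 14, against 13.3% of all 35116 promoters, and these 5 belonged to 4 genes, namely KEAP1, GCLM, TXNRD1 and EPHX1. The stretch from 110 bases before to 10 after each of these starts is shown to let the cores be compared, read along the gene's own strand with the core in capitals. A core on the opposite strand appears as its reverse complement.
KEAP1 chr19:10502762-10502881 (- strand): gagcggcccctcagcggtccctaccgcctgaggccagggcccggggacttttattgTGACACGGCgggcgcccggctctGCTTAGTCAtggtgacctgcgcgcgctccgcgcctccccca
GCLM chr1:93909421-93909540 (- strand): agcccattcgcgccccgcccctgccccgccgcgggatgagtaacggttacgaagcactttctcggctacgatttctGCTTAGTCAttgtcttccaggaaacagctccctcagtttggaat
TXNRD1 chr12:104215669-104215788 (+ strand): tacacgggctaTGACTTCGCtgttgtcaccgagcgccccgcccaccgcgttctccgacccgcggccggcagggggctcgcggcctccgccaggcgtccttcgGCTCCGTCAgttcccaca
TXNRD1 chr12:104286922-104287041 (+ strand): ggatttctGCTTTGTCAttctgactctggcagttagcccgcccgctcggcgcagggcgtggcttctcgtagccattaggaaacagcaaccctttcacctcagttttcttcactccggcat
EPHX1 chr1:225825244-225825363 (+ strand): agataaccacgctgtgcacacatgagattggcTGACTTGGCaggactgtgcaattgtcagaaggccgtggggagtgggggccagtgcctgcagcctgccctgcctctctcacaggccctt
KEAP1 and GCLM hold the same 9 letters, TGACTAAGC, on the opposite strand, 31 to 23 and 34 to 26 bases before their starts. The 5 other genes with an entry (NFE2L2, NQO1, GCLC, SRXN1 and OSGIN1) had no core in this window. OSGIN1 had an AP-1 site, TGANTCA, 97 to 91 bases before its start, a motif found in 7.71% of all promoters that shares its first letters with the antioxidant core. GCGTG, the core bound by the aryl hydrocarbon receptor, was in 10 of the 14 entries and in 36.5% of all promoters. A match describes the letters only, and binding was not measured.

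After SCH treatment, 9 of the 10 genes had risen and none had fallen, with KEAP1 as the exception. At the same threshold, an adjusted p under 0.05 in edgeR's quasi-likelihood test with Benjamini-Hochberg adjustment over all tested genes, 58.7% of the 14736 tested genes had changed and 29.3% had risen. As the set was chosen with earlier results known, this count describes the 10 genes and is not independent evidence of their direction. In the same 9 genes every SCH-treated sample lay above every vehicle-treated sample on normalized CPM (counts divided by library size and edgeR's factor for the sample), which held for 31.1% of tested genes, and the groups were apart in either direction in 62.4%. The median log2 fold change was 0.48 over the 10 genes, 0.58 over the 8 targets and -0.0034 over all tested genes. EPHX1 rose 2.61 fold and OSGIN1 2.18 fold, whereas the other raised genes gained between 1.17 and 1.53 fold. In these bulk samples, a change of RNA per cell and a change in the share of cells that express a gene cannot be told apart.

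**Figure D1:**
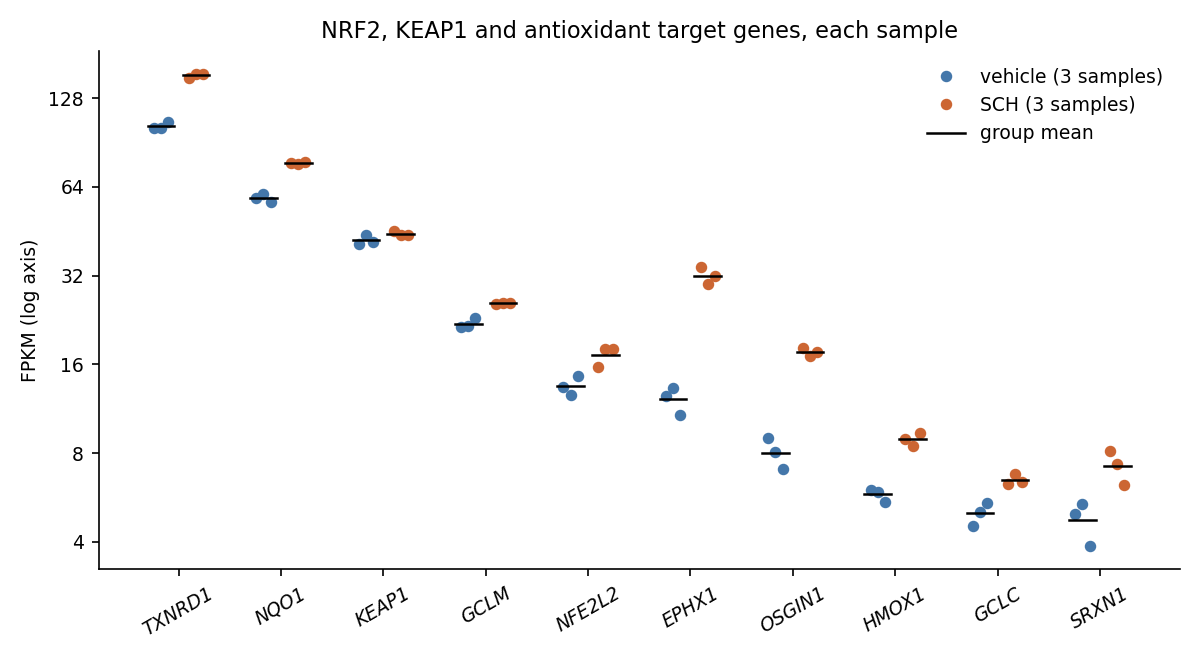
FPKM (log axis) of the 10 genes in each of 3 vehicle-treated (blue) and 3 SCH-treated (orange) samples, where the black lines are group means. Only the KEAP1 samples overlap between the groups, and the EPHX1 samples move from at most 13.3 to at least 30 while TXNRD1 is the highest gene in both groups.

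Of the regulators, NFE2L2, on chr2:177227595-177392697 of GRCh38, was measured at 13.4, 12.6 and 14.6 FPKM (counts scaled to gene length and to the depth of the sample) with vehicle and at 15.7, 18.0 and 18.1 with SCH. Every SCH sample was above every vehicle sample, with SCH replicate 1 nearest to them. The log2 fold change was 0.34 with a standard error of 0.064 (1.27 fold, adjusted p = 7.16e-05). Of the bases in its exons, 20.9% also lie in exons of AGPS and AC079305.1 on the opposite strand or AC019080.1 on the same strand. AGPS had 1431 to 1869 counts per sample and a log2 fold change of -0.17, AC019080.1 had 25 to 45 counts and AC079305.1 had 0 to 5. Whether the counting used strand is not given in the sources used here.

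KEAP1, on chr19:10486120-10503741, was at 41.0, 44.0 and 41.6 FPKM with vehicle and at 45.3, 43.8 and 43.8 with SCH. Vehicle replicate 2 lay above 2 of the SCH samples, so the groups overlapped. Its log2 fold change was 0.06, with a 95% interval from -0.04 to 0.17 and an adjusted p of 0.277. With library size as the only scaling it reached 0.17 and passed the threshold (adjusted p = 0.00512), but there the median of all tested genes also moved, to 0.099. The ratio of NFE2L2 to KEAP1 in FPKM was 0.327, 0.287 and 0.35 with vehicle and 0.347, 0.41 and 0.414 with SCH. Its groups overlapped, and in an exact two-sided permutation test p was 0.2 (0.2 after adjustment over the 2 ratios computed), where the smallest p for 3 samples against 3 is 0.1.

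Enzymes that detoxify quinones and epoxides included the gene with the widest change. EPHX1, the microsomal hydrolase that opens epoxides to diols, lies on chr1:225810092-225845563. It was at 12.5, 13.3 and 10.8 FPKM with vehicle and at 34.1, 30 and 31.9 with SCH. The groups were widely apart. The fold was 2.61, and the log2 value, 1.38 with a standard error of 0.072 (adjusted p = 1.59e-13), exceeded those of 98.3% of tested genes. NQO1, which reduces quinones by a pair of electrons and is a standard readout of NRF2, lies on chr16:69706996-69726951. Its FPKM was 58.7, 60.4 and 56.9 with vehicle and 76.8, 76.6 and 77.6 with SCH. On the log2 scale NQO1 rose by 0.39 (standard error 0.047, adjusted p = 2.22e-07). The NQO1 groups were far apart relative to their spread, although the rise itself was 1.31 fold.

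Genes of the thioredoxin and sulfiredoxin branch rose to a similar degree. TXNRD1 encodes the cytosolic reductase that uses NADPH to recycle thioredoxin, and lies on chr12:104215779-104350305. It was at 101, 101 and 106 FPKM with vehicle and at 150, 154 and 154 with SCH, on 12584 to 20321 counts per sample. Its log2 fold change of 0.57 had the smallest standard error of the 10 genes, 0.045 (1.48 fold, adjusted p = 2.00e-10). SRXN1, the sulfiredoxin that repairs over-oxidized peroxiredoxins, lies on chr20:646615-653370. Its FPKM was 4.98, 5.37 and 3.88 with vehicle and 8.16, 7.32 and 6.26 with SCH. The log2 fold change was 0.60 (1.52 fold, adjusted p = 7.35e-05), and on 193 to 394 counts per sample its standard error was the largest, 0.11. SRXN1 shares 85% of its exonic bases with AL121758.1 on the same strand, to which 0 to 3 counts per sample were assigned.

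The subunits of glutamate-cysteine ligase, which makes the first bond of glutathione, rose by less. GCLM, the modifier subunit, on chr1:93885205-93909456, was at 21.4, 21.6 and 22.9 FPKM with vehicle and at 25.6, 25.9 and 25.8 with SCH. This was the smallest of the 9 rises, at 1.17 fold or 0.22 on the log2 scale (standard error 0.05, adjusted p = 5.71e-04). GCLC, the catalytic subunit, on chr6:53497341-53616970, was at 4.52, 5.07 and 5.44 FPKM with vehicle and at 6.3, 6.81 and 6.38 with SCH. GCLC changed by 0.37 on the log2 scale (standard error 0.069, adjusted p = 7.67e-05). Per length, GCLC messenger was far below that of GCLM, at a ratio of 0.212, 0.234 and 0.237 with vehicle and 0.246, 0.263 and 0.247 with SCH. The ratio was higher in all 3 SCH samples, and the exact two-sided permutation p was 0.1, the smallest that 3 against 3 can give (0.2 after adjustment over the 2 ratios).

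HMOX1, the inducible heme oxygenase, lies on chr22:35380361-35394214. Its FPKM was 6.02, 5.91 and 5.46 with vehicle and 8.9, 8.47 and 9.37 with SCH. The log2 fold change was 0.61 (standard error 0.087, 1.53 fold, adjusted p = 2.09e-06). OSGIN1, an oxidative stress induced growth inhibitor, lies on chr16:83948282-83966332. It was at 8.97, 8.05 and 7.08 FPKM with vehicle and at 18.2, 17.1 and 17.6 with SCH, which is 2.18 fold (log2 fold change 1.13, standard error 0.074, adjusted p = 8.36e-12). Its rise exceeded the changes of 97.1% of tested genes, against 89.7% for HMOX1.

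**Figure D2:**
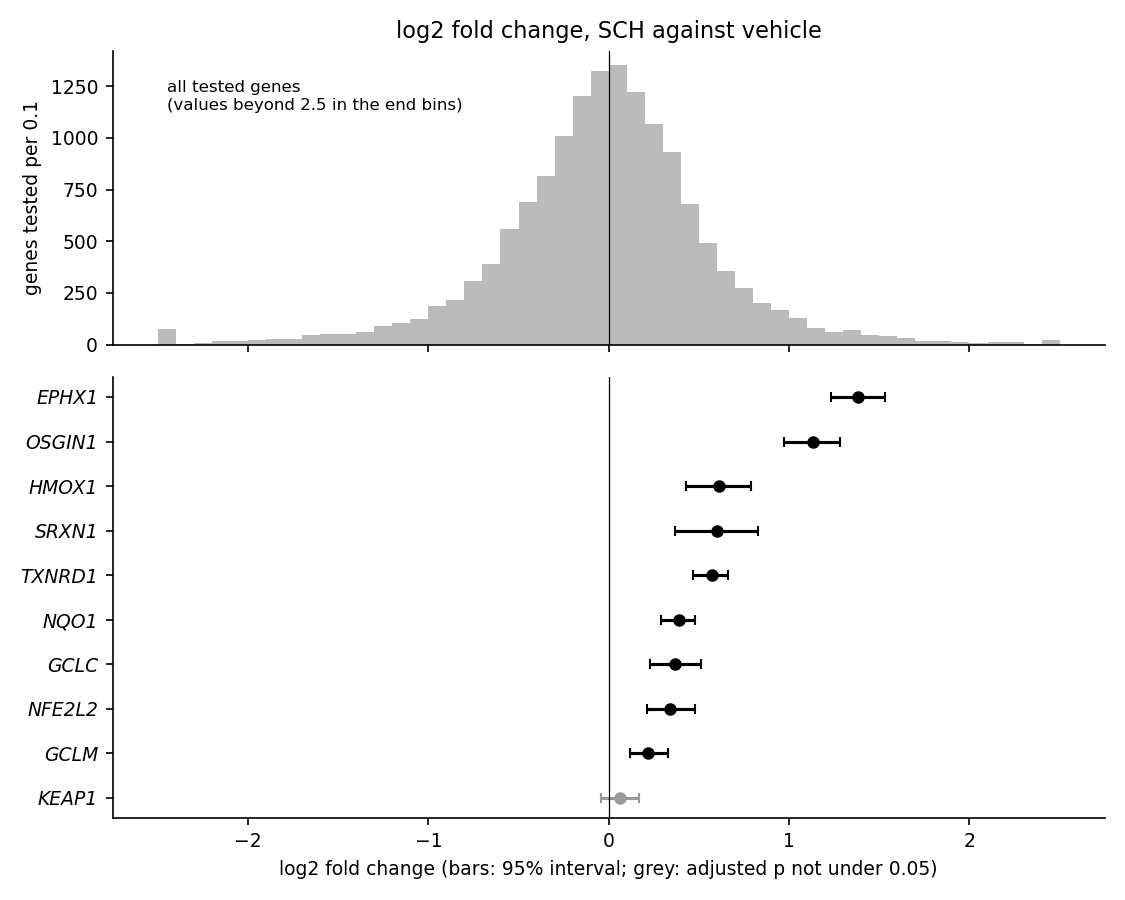
Log2 fold changes, SCH against vehicle, of all 14736 tested genes (histogram, upper panel) and of the 10 genes with 95% intervals (lower panel; grey marks KEAP1, whose adjusted p is 0.277). The 9 black intervals lie above 0, from GCLM at 0.22 to EPHX1 at 1.38.

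The order of the levels changed with these rises. In vehicle-treated cells, FPKM fell from TXNRD1 through NQO1, KEAP1, GCLM, NFE2L2, EPHX1, OSGIN1, HMOX1 and GCLC to SRXN1. NFE2L2 and EPHX1 overlapped there, as did GCLC and SRXN1, while all other neighbours were apart. In SCH-treated cells EPHX1 stood above GCLM, directly below KEAP1, and OSGIN1 overlapped NFE2L2. TXNRD1 in vehicle-treated cells exceeded 97.2% of tested genes in FPKM. HMOX1, GCLC and SRXN1 were near the middle of the tested genes, above 55.8%, 52.3% and 51.0% of them.

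The samples of a group did not deviate the same way in all genes. Vehicle replicate 3 was the lowest of its group for 5 genes (NQO1, HMOX1, SRXN1, OSGIN1 and EPHX1) and the highest for 4 (NFE2L2, GCLM, GCLC and TXNRD1). Those last 4 were all lowest in SCH replicate 1, where SRXN1, OSGIN1 and EPHX1 were highest. These differences are within groups of 3 and carry no test. Over all 6 samples, the genes whose log2 CPM followed NFE2L2 most closely, among 9608 genes with a mean of at least 10 CPM, were GCNT2, ESCO2 and CLDND1, with Pearson r of 0.9979, 0.9972 and 0.996. For KEAP1 they were EID2, TBC1D25 and TEAD4, with r of 0.9747, 0.9746 and 0.9712. The 6 samples differ by treatment, so r describes likeness over 6 points only.

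Around the 10 genes, 10 lists of the wider pathway held 117 genes, of which 108 were tested. Of these, 50 had risen (46.3%) and 23 had fallen (21.3%), beside 29.3% and 29.4% of all tested genes, and their median log2 fold change was 0.13. Values for each list are in the plot of log2 fold changes by list, and differences between lists were not tested.

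**Figure D3:**
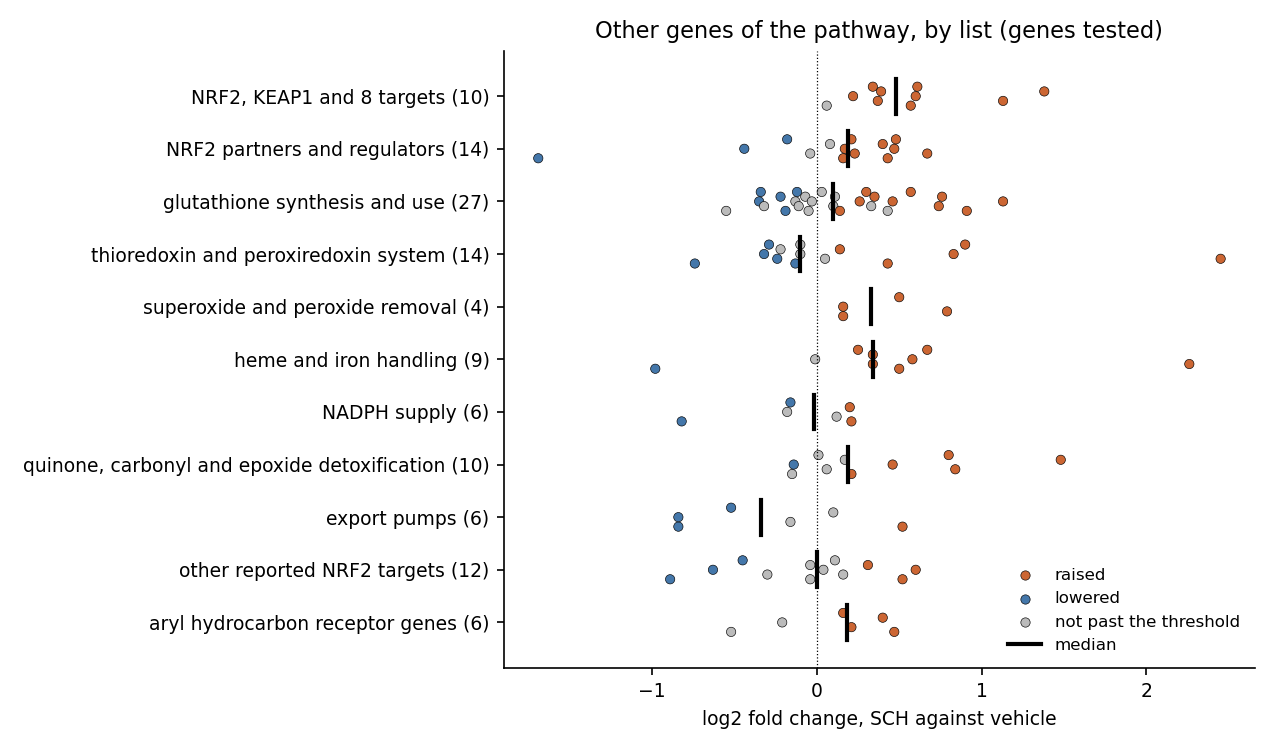
Log2 fold change of each tested gene in the 10 genes and in 10 wider lists, with the number tested in brackets; orange and blue are genes raised and lowered at an adjusted p under 0.05, grey did not pass, and black bars are medians. Medians run from -0.34 for export pumps to 0.34 for heme and iron handling, below the 0.48 of the 10 genes.

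Of 14 partners and regulators of NRF2, 9 rose (64.3%), 3 fell (21.4%) and 2 did not pass. Among all tested genes 29.3% rose and 29.4% fell. All 3 small MAF genes, whose proteins bind DNA together with NRF2 or BACH factors, rose. MAFF was at 20, 20.3 and 18.4 FPKM with vehicle and 27.0, 25.6 and 25.0 with SCH (log2 fold change 0.40), MAFK rose by 0.47 and MAFG by 0.17 on the log2 scale. BACH1, the repressor that competes for the same elements, also rose, from 5.0, 5.3 and 5.94 to 7.14, 7.41 and 7.34 FPKM (log2 fold change 0.43, adjusted p = 9.19e-06). Its relative BACH2 fell, with a log2 fold change of -1.69 on a mean of 23.33 counts, but of -0.17 in limma on log2(FPKM + 1), where the pseudocount exceeds its level of 0.152, 0.242 and 0.183 FPKM with vehicle. Of the related factors, NFE2L3 had a log2 fold change of -0.18, which was -0.08 and did not pass with library size as the only scaling, and NFE2L1, named after its values were seen, one of 0.08 that did not pass.

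Messengers of proteins that bind KEAP1 changed in both directions. SQSTM1, the autophagy receptor p62 that can draw KEAP1 away from NRF2, was at 75.7, 76.8 and 74.0 FPKM with vehicle and at 111, 102 and 105 with SCH. All SCH samples of SQSTM1 stood clear of the vehicle samples (log2 fold change 0.48, standard error 0.046, adjusted p = 4.01e-09). DPP3, a peptidase that also binds KEAP1, rose by 0.67 and PGAM5, a mitochondrial phosphatase that KEAP1 binds, fell by 0.44 on the log2 scale. CUL3, the scaffold of the ligase and also named after its values were seen, was at a log2 fold change of -0.04 and its adjusted p was 0.569. RBX1, the RING subunit, was at 0.16, a call lost without vehicle replicate 2 (0.14) or SCH replicate 2 (0.16) and with upper quartile factors (0.13). GSK3B, a kinase of the second route of NRF2 breakdown, rose by 0.23. BTRC, the ligase adaptor of that route, had overlapping groups at 0.21 and lost its call without vehicle replicate 2 (0.14), SCH replicate 1 (0.14) or SCH replicate 3 (0.20). BTRC also did not pass with upper quartile factors, with DESeq2 or with limma on FPKM (adjusted p = 0.0736, 0.0523, and 0.109 and 0.104 with a pseudocount of 1 and 0.1).

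Glutathione genes were mixed, with 10 of 27 raised (37.0%), 5 lowered (18.5%) and 12 not past the threshold. The shares of all tested genes were 29.3% and 29.4%. Glutathione genes with the widest changes included GPX3, the transferases GSTM3 and GSTP1 and the glutaredoxin GLRX. GPX3, the secreted glutathione peroxidase, was at 42.3, 44.9 and 39.8 FPKM with vehicle and at 78.3, 80.6 and 81.1 with SCH, 1.88 fold higher. GSTM3, GLRX and GSTP1 rose by 1.13, 0.76 and 0.74 on the log2 scale. The 5 lowered genes changed by less, with log2 fold changes from -0.35 to -0.12. SLC7A11, the cystine carrier that feeds glutathione synthesis and is a familiar NRF2 target, was named after its values were seen. It was at 12.0, 11.2 and 13.3 FPKM with vehicle and at 11.6, 11.7 and 10.2 with SCH, with overlapping groups (log2 fold change -0.13, adjusted p = 0.0819).

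In the thioredoxin and peroxiredoxin system, 5 of 14 genes rose and 5 fell (35.7% each), near the 29.3% and 29.4% of all tested genes. The median of the system, -0.10, became 0.00048 with library size as the only scaling. SESN3, a sestrin, was at 0.502, 0.464 and 0.549 FPKM with vehicle and at 2.55, 2.85 and 2.93 with SCH, 5.47 fold higher (adjusted p = 2.68e-15). At this low level its log2 fold change of 2.45 became 1.33 in limma on log2(FPKM + 1). SESN1 and TXNIP, the inhibitor of thioredoxin, rose by 0.90 and 0.83 on the log2 scale. SESN1 ranged from 0.57 to 1.01 with other processing. The mitochondrial reductase TXNRD2 fell by 0.74, opposite to TXNRD1. Thioredoxin itself, TXN, also named after its values were seen, was at 391, 372 and 410 FPKM with vehicle and at 294, 317 and 330 with SCH. TXN thus fell, by 0.32 on the log2 scale (adjusted p = 1.11e-05), where its reductase rose.

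All 4 genes of superoxide and peroxide removal rose, beside 29.3% of all tested genes. SOD2, the mitochondrial superoxide dismutase, was at 7.68, 7.93 and 8.16 FPKM with vehicle and at 13.4, 13.7 and 14.0 with SCH, 1.72 fold higher. Its symbol stands on 2 rows of the table, and the row with more counts was used. SOD3 rose by 0.50, SOD1 by 0.16 and CAT, catalase, by 0.16, where CAT did not pass without vehicle replicate 2 (0.14) or SCH replicate 2 (0.15), or with upper quartile factors (0.13).

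Of 9 genes of heme and iron handling, 7 rose (77.8%), 1 fell (11.1%) and 1 did not pass. Among all tested genes 29.3% rose and 29.4% fell. FTL, the ferritin light chain that stores iron, was at 2620, 2560 and 2580 FPKM with vehicle and at 3830, 4180 and 4380 with SCH (log2 fold change 0.67, adjusted p = 6.03e-11). FTL has many near-identical pseudogenes, so its counts are uncertain. TFRC, the transferrin receptor that brings iron in, fell from 85.5, 85.3 and 91.8 to 44.4, 44.2 and 45.6 FPKM, a fold of 0.508. HMOX2, the constitutive heme oxygenase, and SLC48A1, a heme carrier, rose by 0.50 and 0.58. SLC40A1, the iron exporter ferroportin, stands out in the plot of the lists and was named after its values were seen. It was at 0.286, 0.0995 and 0.263 FPKM with vehicle and at 0.994, 1.12 and 1.05 with SCH (log2 fold change 2.26, standard error 0.25), on a mean of 52.17 counts.

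Of 6 genes that supply NADPH, 2 rose and 2 fell, shares (33.3% each) near those of all tested genes. Their median of -0.02 became 0.09 with library size as the only scaling and 0.03 without vehicle replicate 3. PGD, a dehydrogenase of the pentose phosphate route, rose by 0.21 on the log2 scale. TKT, transketolase of the non-oxidative branch, fell from 54.1, 55.8 and 51.2 to 29.8, 30.9 and 30.9 FPKM (log2 fold change -0.82, adjusted p = 9.61e-13). TALDO1, in the same branch, was at -0.16, and its call was lost without vehicle replicate 1 (-0.13) and with library size as the only scaling (-0.06).

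Other enzymes against quinones, carbonyls and epoxides were raised in 5 and lowered in 1 of 10 tested genes, and 6 more listed genes were too low to test. AKR1C3, an aldo-keto reductase, was at 1.2, 1.52 and 1.47 FPKM with vehicle and at 3.77, 4.44 and 3.57 with SCH. This was 2.8 fold higher, although near-identical AKR1C genes make its counts uncertain. The log2 fold change of AKR1C3 was 1.48 (standard error 0.12) and ranged from 1.04 to 1.59 with other processing. ALDH3A2, NQO2 and PTGR1 rose by 0.84, 0.46 and 0.21. Of 6 export pumps, which carry conjugates and drugs out of the cell, 3 fell and 1 rose. The median of the pumps, -0.34, became -0.13 in limma on log2(FPKM + 1). ABCC1 and ABCC4 fell by 0.52 and 0.84, while ABCC5 rose by 0.52. Among 12 further genes reported as NRF2 targets, 3 rose and 3 fell, shares (25.0% each) near those of all tested genes. Their median of 0.0027 became 0.11 with library size as the only scaling, 0.04 without SCH replicate 1 and -0.03 with upper quartile factors. OSGIN2 and RIT1 rose by 0.60 and 0.52, and PPARG and TSKU fell by 0.89 and 0.63.

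The aryl hydrocarbon receptor, which responds to many plant compounds and shares targets such as NQO1 with NRF2, was followed through 6 tested genes. Of these, 4 rose (66.7%) and none fell, beside 29.3% and 29.4% of all tested genes. CYP1B1 was at 20.1, 21.6 and 24.4 FPKM with vehicle and at 28.6, 31.2 and 27.7 with SCH (log2 fold change 0.40), and ARNT and AHR rose by 0.47 and 0.21. TIPARP, at 0.16, did not pass without SCH replicate 3 (0.14) or with upper quartile factors (0.12). CYP1A1, the receptor's best known target, was named after its values were seen. It was at 3.64, 4.06 and 3.84 FPKM with vehicle and at 3.12, 3.46 and 3.39 with SCH (log2 fold change -0.21, adjusted p = 0.0688).

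Markers of the line moved with the treatment too. All 6 markers of MDA-MB-231 cells (VIM, CD44, AXL, CAV1, MSN and KRT18) were present in every sample. Their summed FPKM was 1000, 1020 and 995 with vehicle and 668, 668 and 669 with SCH. Except CD44, they fell (5 of 6), beside 29.4% of all tested genes. AXL, the most abundant with vehicle, had a log2 fold change of -0.84. Of 6 markers that are low in this line, ESR1, PGR and CDH1 were too low to test. The others were tested and changed, with ERBB2 and FOXA1 raised by 0.29 and 1.16 on the log2 scale and GATA3 lowered (-0.79). Among all tested genes 58.7% changed. FOXA1 ranged from 0.7 to 1.27 with other processing. Of 7 markers of leukocytes, endothelium and fibroblasts, CD3E, CD68, VWF and DCN were too low to test, with CD3E and DCN at or near 0. The summed FPKM of the 7 was 0.883, 0.892 and 0.866 with vehicle and 0.976, 1.11 and 1.04 with SCH. COL1A1 was the most abundant in every sample. PTPRC, the leukocyte marker, named after its values were seen, had a log2 fold change of -2.75 on a mean of 21 counts. COL1A1, a collagen gene of fibroblasts, had one of 0.76 on a mean of 121.2 counts (adjusted p = 4.26e-05). With other processing the value of COL1A1 ranged from 0.3 to 0.86, past the threshold each time. The part of these marker changes in the results above was not tested.

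**Figure D4:**
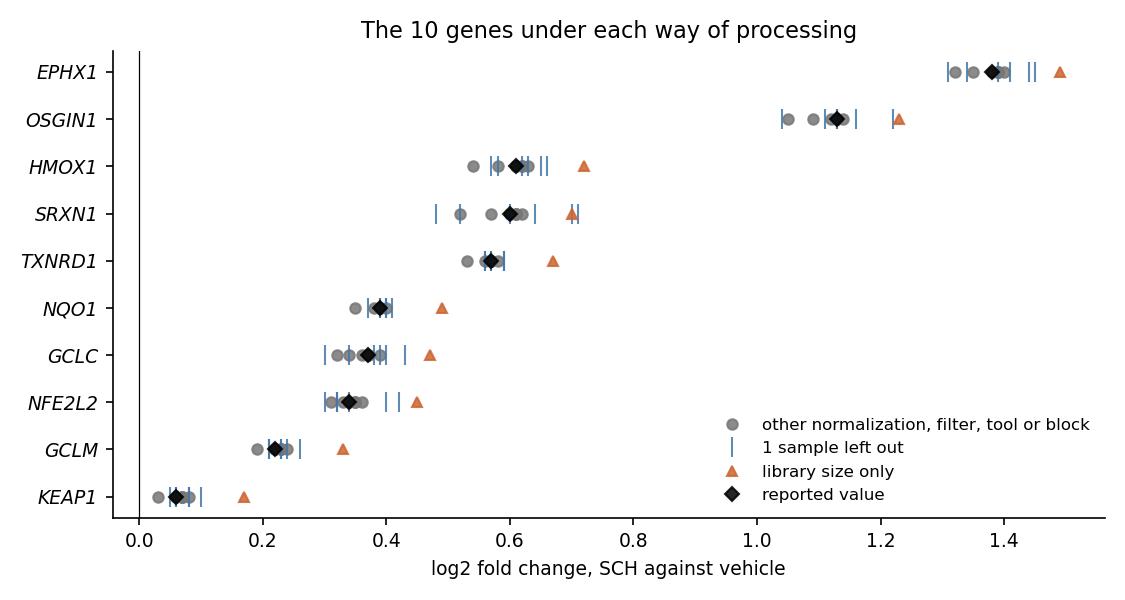
Log2 fold change of each of the 10 genes as reported (diamonds), with another normalization, filter, tool or block (circles), with library size only (triangles) and with 1 sample left out (blue bars). EPHX1 stays between 1.31 and 1.49 and OSGIN1 between 1.04 and 1.23, and KEAP1 ranges from 0.03 to 0.17.

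Across these settings, 9 of the 10 genes stayed raised and past the threshold, as the plot of the alternatives shows. Without vehicle replicate 3 or with any other sample left out, the same 9 genes were past the threshold. SRXN1, with the fewest counts, ranged from 0.48 to 0.71, and TXNRD1, with the most, from 0.53 to 0.67.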

How the data were processed

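The raw counts per gene and the FPKM values were deposited by the authors, the counts without normalization and FPKM scaled by gene length and sample. The submitters' processing notes name CASAVA 1.8, HISAT2 2.0.5, featureCounts 1.5.0-p3, DESeq2 1.20.0 and GRCh38. Libraries were made from poly-T purified mRNA. Counts were tested in R 4.3.3 with edgeR 4.0.16 (TMM, filterByExpr, quasi-likelihood test, Benjamini-Hochberg adjustment, threshold 0.05), without covariates. The common biological coefficient of variation was 5.17%. FPKM served for levels and ratios, with exact permutation tests of ratios. Exons and coordinates came from GENCODE 29, and promoters from RefSeq. HMOX1 had no promoter entry.

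The genes, lists and rules were chosen with earlier results of these data known. Named were the 10 genes, all changed NRF2 partners, and per further list up to 4 genes of largest change, averaging 100 counts or more, that were past the threshold with groups apart. A few well known genes were added after their values were seen, as marked, and 1 gene that the rule names is not reported here. Data for SCH against vehicle were simulated with 200 changed genes, and 14573 genes passed the filter. Changed genes lost to that filter were not counted. At 1.5 on the log2 scale, 39 of 39 falls and 30 of 31 rises were recovered. At 1 they were 18 of 25 falls and 35 of 39 rises, and at 0.5 they were 19 of 24 and 27 of 38. Of the calls, 5.62% were false. In the real data 58.7% of tested genes were called, a far larger share than was simulated, so these rates may not carry over. Alternatives were other normalizations and filters, DESeq2 1.42.0, limma 3.58.1 on log2(FPKM + 1) and log2(FPKM + 0.1), the replicate block and each sample left out.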

Additional observations from a re-analysis of the deposited data

How the results depend on the processing

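The number of the 10 genes past the threshold was 9 under every alternative except library size only (10, with KEAP1). Their median log2 fold change of 0.48 became 0.58 with library size only, 0.44 with upper quartile factors, 0.49 without a filter and 0.46 with limma on log2(FPKM + 1), and ranged from 0.46 to 0.48 with each sample left out. With library size only, 5519 genes rose and 3295 fell, so rises made up 62.6% of the calls and not 49.9%, and the median of the thioredoxin and peroxiredoxin list turned from -0.10 to 0.00048. Of 55 named genes of the lists, 49 kept their call and direction in every setting that tested them (BACH2 was not tested with at least 10 counts in every sample), and BTRC, CAT, NFE2L3, RBX1, TALDO1 and TIPARP lost their call in at least 1 setting; the cause was not tested. With the replicate number as a block, 8705 genes were past the threshold in place of 8650 and the same 9 of the 10 genes. Samples with the same number did not deviate together (r of 0.072, -0.035 and 0.057), so the numbers were not taken as pairs, and not every sample correlated best with its own number. DESeq2 gave 7919 genes. Of the 10 genes, SRXN1 and HMOX1 had the fewest counts, 193 and 242 in their lowest samples, and BACH2, PTPRC and SLC40A1 had far fewer (means of 23.33, 21 and 52.17).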
